A study of Mus musculus with 87 samples.

Results

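Mouse embryonic stem cells that lack all 3 Polycomb-like proteins were compared with wild-type cells by RNA sequencing. The comparison takes 6 of the 87 samples of the series: 3 RNA libraries with the genotype label Pcl1-3 KO and 3 with the label WT, taken by those labels. The study removed subunits of Polycomb repressive complex 2 (PRC2) singly and together and sequenced RNA in 24 libraries, 3 for each of 8 genotypes. Cells of every genotype grew on gelatin in 2i medium, which holds stem cells in the naive state with a pair of kinase inhibitors, and nothing in the labels sets the controls apart other than the genotype and the strain. The strain label is 129B6F1 for WT, 129B6F2 for Suz12 KO, 129B6F3 for Pcl1-3 KO, 129B6F4 for Pcl1-3 + Epop KO, 129B6F5 for Jarid2 + Aebp2 KO, 129B6F6 for Pcl1-3 + Jarid2 KO, 129B6F7 for Pcl1-3 + Jarid2 + Aebp2 KO and 129B6F8 for Pcl1-3 + Jarid2 + Aebp2 + Epop KO. Its last digit thus goes up by 1 with each genotype in the order listed, and whether it names different strains or is only a running number of the label table is not known; as labelled, strain and genotype cannot be told apart. Neither labels nor protocols say if replicates were grown separately or if a genotype stands on 1 clone; the p-values thus reflect only variation among the libraries at hand, some or all of which may be technical.

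PRC2 places methyl groups on lysine 27 of histone H3 and is known for holding developmental genes silent in stem cells. Its core, with SUZ12 among the subunits, joins alternative sets of partner proteins. In the form called PRC2.1 the partner is 1 of the Polycomb-like proteins, which bind DNA rich in unmethylated CG pairs and read histone marks through a Tudor domain; in PRC2.2 the partners are JARID2 and AEBP2. Loss of Pcl1-3 thus takes away the proteins that define PRC2.1 and leaves the core and the PRC2.2 partners in place.

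The Polycomb-like genes are Phf1 (PCL1), Mtf2 (PCL2) and Phf19 (PCL3). In the deposited SUZ12, JARID2 and PCL2 peak lists Phf19 had peaks of all 3 proteins, while Phf1 and Mtf2 had none within 1 kb of the gene. Further PCL2 peaks of 544 and 344 bp lay inside Phf19 and covered none of the bases described next. Phf19 lies on the minus strand of chromosome 2 (mm10, 34893752 to 34914353), and a SUZ12 peak of 2353 bp, a JARID2 peak of 1530 bp and a PCL2 peak of 2352 bp each covered all 250 bases upstream of the start that the RefSeq promoter table uses, which lies inside the gene span. Those bases hold 31 CG pairs, and the same window holds 23 at Phf1 and 23 at Mtf2, against a median of 6 over all 32851 mouse promoters of that length (RefSeq, GRCm38.p6). At least 31 pairs were found in 5.19% of promoters and at least 23 in 13.3%. Promoters that overlap a SUZ12, JARID2 or PCL2 peak had medians of 18, 17 and 17 pairs. They made up 13.5%, 6.84% and 22.6% of all promoters, and 76.9% overlapped none of the 3 lists. These shares count peaks over the promoter, and not over the gene with 1 kb on each side. In each window the 30 bases with the most CG pairs were picked by CG count alone, and at Phf1 and Mtf2 no PCL2 peak covers them. They are shown 5′ to 3′ on the strand of the gene, with each CG in capitals.
Phf1, chr17:26932955-26932984, plus strand: gtgCGgCGcacaggCGgggttaCGCGtgCG
Mtf2, chr5:108065609-108065638, plus strand: agggCGCGgtgttcctcCGCGctCGcCGCG
Phf19, chr2:34914067-34914096, minus strand: cCGCGgCGccccCGcccCGcccCGccccCG
The stretches hold 6, 7 and 7 CG pairs in that order; the search covered CG only, which reads the same on both strands.

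Total counts ran from 10148155 to 14040580 in WT and were 11302766, 14038734 and 28442061 in Pcl1-3 KO replicates 1, 2 and 3, so Pcl1-3 KO replicate 3 was the deepest. Counts of every pair of replicates differed by more than sampling noise (chi-square per degree of freedom 6.28 to 30.6). Spearman's rho of log2 CPM (counts scaled to library size with TMM factors) was 0.992 to 0.994 between WT libraries, 0.987 to 0.992 between Pcl1-3 KO libraries and 0.969 to 0.988 between the groups, each across 14650 IDs. Ensembl gene IDs are not paired with gene names in the tables used here. The transcripts of the targeted genes and the markers of stem cells and of other cell types were therefore not checked, and results are given by ID.

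About as many IDs rose as fell in Pcl1-3 KO against WT. The falls were deeper over all levels of expression together, and less so among the more strongly expressed IDs. In Pcl1-3 KO against WT 637 of 14650 IDs rose and 637 fell (4.35% each, 8.70% in all; edgeR quasi-likelihood test with Benjamini-Hochberg adjustment, adjusted p under 0.05, n = 3 libraries a group). Risen IDs had a median log2 fold change of 0.79, with quartiles of 0.53 and 1.29, and fallen IDs one of −1.23, with quartiles of −2.14 and −0.72. Over all tested IDs it was 0.0034. Past 2-fold 238 IDs rose (1.62%) and 382 fell (2.61%), past 4-fold 48 rose and 177 fell, past 8-fold 8 rose and 70 fell, and past 16-fold 3 rose and 34 fell. The 238 risen IDs became 99 and 158 when WT replicate 1 or 2 was left out and 151 and 97 when Pcl1-3 KO replicate 1 or 3 was; the 382 fallen IDs became 210 without WT replicate 1 and 204 without Pcl1-3 KO replicate 3. Without Pcl1-3 KO replicate 2 the numbers past 2-fold went up, to 357 risen and 417 fallen. Fitted folds of IDs near 0 counts depend on the prior count, so the class past 16-fold counts fitted values and gives no bounds. A fit blocked on replicate number gave 1518 risen and 1377 fallen IDs in all.

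**Figure D1:**
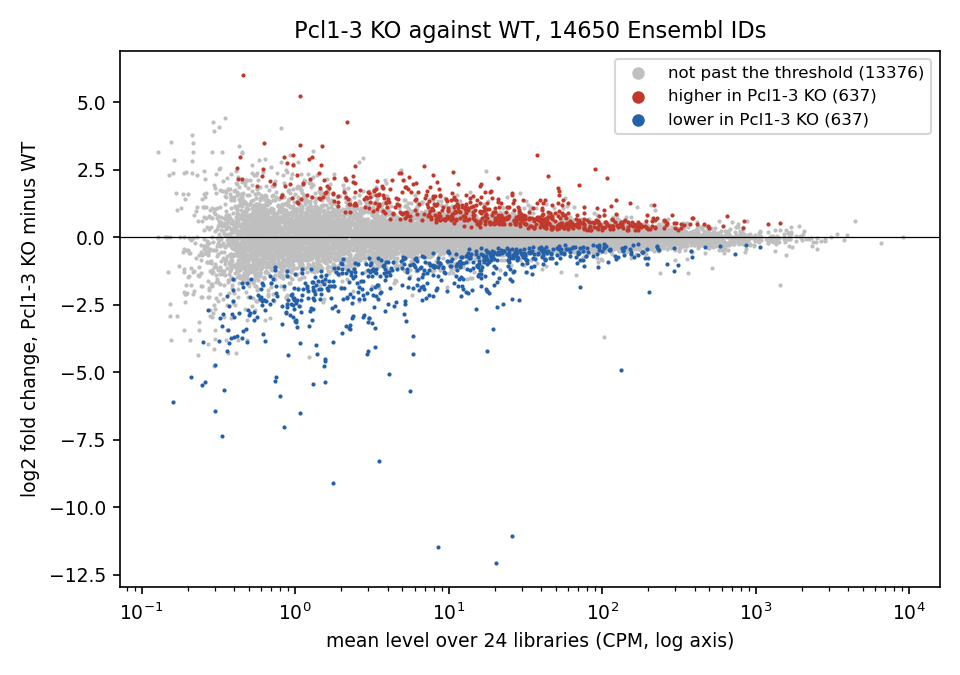
Each point is 1 Ensembl ID: the mean level over all 24 libraries in CPM on a log axis, against the log2 fold change of Pcl1-3 KO minus WT. The 637 fallen IDs (blue) reach down to −12.07, while the 637 risen IDs (red) end at 6.01.

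Calls were found at all levels of expression, first measured as the mean over all 24 libraries. Under 1 CPM 20 of 1907 IDs rose (1.05%) and 94 fell (4.93%). From 1 to 10 CPM 174 of 3768 rose (4.62%) and 254 fell (6.74%). From 10 to 50 CPM the order turned, with 250 of 4458 risen (5.61%) and 196 fallen (4.40%), and over 50 CPM 193 of 4517 rose (4.27%) and 93 fell (2.06%). Strongly expressed IDs moved little: of those called over 50 CPM, 17 rose and 7 fell past 2-fold, with median log2 fold changes of 0.49 and −0.51. The medians of risen and fallen IDs were 0.76 and −0.79 from 10 to 50 CPM, 1.41 and −1.68 from 1 to 10 CPM, and 2.22 and −2.68 under 1 CPM. Over 10 CPM the falls were thus hardly deeper than the rises, and more fallen than risen IDs lay under 10 CPM. Depth limits which changes can pass at low levels, where every called ID under 1 CPM was past 2-fold. The mean over 24 libraries is itself lowered by a fall, since 15 of the libraries lack Pcl1-3, and the order of the lowest bin depended on it. Binned on the WT mean, 71 of 2227 IDs under 1 CPM rose (3.19%) and 51 fell (2.29%), and over 50 CPM 145 of 4464 rose (3.25%) and 116 fell (2.60%). Binned on the mean in Jarid2 + Aebp2 KO, whose libraries are in neither group, 44 of 2215 under 1 CPM rose (1.99%) and 128 fell (5.78%), and over 50 CPM 177 of 4502 rose (3.93%) and 102 fell (2.27%). Both of these binnings were added after the data were seen.

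The libraries of the groups were separate for nearly all called IDs. Among risen IDs 627 of 637 had every Pcl1-3 KO library above every WT library, and among fallen IDs 632 of 637 had every one below. The same separation was seen in 17.1% and 15.5% of all tested IDs, and the calls were made on the same values, so it adds no support. Relative to the WT mean, the median over risen IDs was 0.84 in Pcl1-3 KO replicate 1, 0.57 in replicate 2 and 0.89 in replicate 3 on the log2 scale, and over fallen IDs −1.18, −1.05 and −1.24. Replicate 2 was the nearest to WT in both sets. The numbers of calls rested on single libraries: 463 IDs passed without WT replicate 1 (183 risen, 280 fallen), 750 without WT replicate 2 (318 and 432), 840 without WT replicate 3 (377 and 463), 660 without Pcl1-3 KO replicate 1 (291 and 369) and 470 without Pcl1-3 KO replicate 3 (203 risen, 267 fallen), against 1274 with all 6. Without Pcl1-3 KO replicate 2 the number went up, to 1514 (821 risen, 693 fallen). Of the 1274 IDs, 452 were still called without WT replicate 1, 457 without Pcl1-3 KO replicate 3 and 1089 without Pcl1-3 KO replicate 2. With Pcl1-3 KO replicate 3 thinned to the mean total of the other two, 1182 IDs passed and 1148 of the 1274 were kept.

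**Figure D2:**
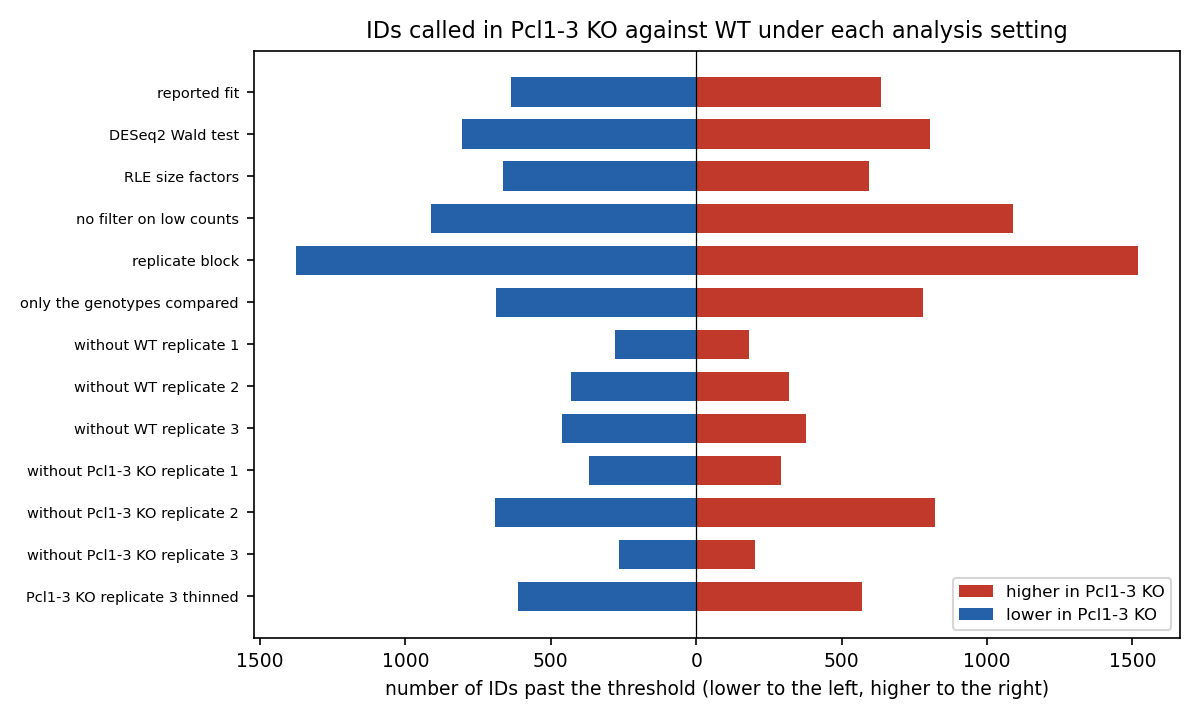
Bars give the number of IDs past the threshold in Pcl1-3 KO against WT, fallen to the left and risen to the right, for the reported fit and each alternative. The totals run from 463 without WT replicate 1 to 2895 with the replicate number as a block, against 1274 in the reported fit.

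More IDs went from expressed to near 0 than the reverse. From at least 2 CPM in WT to under 0.5 CPM in Pcl1-3 KO, with no overlap between libraries and past the test, 39 of 14650 IDs lost expression. By the same rule in the other direction 4 gained it. The median level of the 39 was 2.82 CPM in WT and 0.297 CPM in Pcl1-3 KO. In the knockouts that lack further subunits besides Pcl1-3 it was 0.314 CPM (with Epop lost), 0.480 (Jarid2), 0.286 (Jarid2 and Aebp2) and 0.553 (Jarid2, Aebp2 and Epop). In the knockouts that keep Pcl1-3 it was 5.71 CPM (Suz12 KO) and 1.64 CPM (Jarid2 + Aebp2 KO). The median of the 4 gained IDs was 0.400 CPM in WT and 2.46 CPM in Pcl1-3 KO, 1.78 CPM with Epop also lost, and 0.913, 0.878 and 0.970 CPM with Jarid2, with Jarid2 and Aebp2, and with Jarid2, Aebp2 and Epop also lost. In Suz12 KO it was 0.924 CPM and in Jarid2 + Aebp2 KO 0.921 CPM, so that the gained IDs, unlike the lost ones, were not set apart by the presence of Pcl1-3 in these medians. Of the 39 lost IDs 22 also fell when Pcl1-3 was lost together with Jarid2 and Aebp2, against 6.83% of all tested IDs. Of the 4 gained IDs 0 also rose, against 6.87% of all, and 4 IDs are too few to be set apart from that share. The WT and Pcl1-3 KO values chose these IDs and are a description.

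The 2 lowest log2 fold changes belonged to IDs that were expressed at a moderate level in WT and had no read in Pcl1-3 KO. ENSMUSG00000069049.11 had 366, 388 and 584 counts in the WT libraries (38.9 ± 3.45 CPM, SD, n = 3) and 0 in each Pcl1-3 KO library. Its level was at least 699-fold lower, taken against 3 counts over the Pcl1-3 KO group (edgeR quasi-likelihood adjusted p = 1.20e-08). ENSMUSG00000068457.14 had 292, 280 and 299 counts in WT (26.0 ± 3.67 CPM) and again 0 in each Pcl1-3 KO library, at least 455-fold lower (edgeR adjusted p = 9.98e-08). The floor of 3 counts covers counting error only.

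Both IDs were expressed in every knockout that keeps Pcl1-3 and near or at 0 in every one that lacks it. ENSMUSG00000069049.11 stood at 52.2 ± 10.1 CPM in Suz12 KO and 71.2 ± 15.9 CPM in Jarid2 + Aebp2 KO (SD, n = 3). In the 15 libraries that lack Pcl1-3 it had 2 counts in Pcl1-3 + Jarid2 KO replicate 3 and 0 in the other libraries. ENSMUSG00000068457.14 stood at 19.6 ± 2.50 CPM in Suz12 KO and 22.6 ± 4.95 CPM in Jarid2 + Aebp2 KO, and had 0 counts in all 15. Levels on this scale are not divided by gene length, so the IDs are compared between genotypes and not with each other.

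These IDs were among 9 with at most 1 count in each Pcl1-3 KO library and at least 1 CPM in WT, a set chosen after its values were seen. Their WT means ran from 1.16 to 60.1 CPM with a median of 3.61, and 3 were over 10 CPM. The reverse rule, at most 1 count in each WT library and at least 1 CPM in Pcl1-3 KO, found 0 IDs. Of the 9, 6 also had at least 1 CPM in Jarid2 + Aebp2 KO and at most 1 count in each Pcl1-3 + Jarid2 + Aebp2 KO library. Over all 14650 tested IDs 10 met both limits (0.0683%). The rule did not use these libraries, but it was set after values were seen. A parental line common to the genotypes without Pcl1-3 was not tested, so these shares are no test of Pcl1-3 loss. At most 1 count in each library was found for 6 of the 9 in Pcl1-3 + Epop KO, for 3 in Pcl1-3 + Jarid2 KO and for 4 in Pcl1-3 + Jarid2 + Aebp2 + Epop KO, and 1 of the 9 had a mean of at least 1 CPM in each of the last pair of genotypes. At a stricter level, 5 of the 9, the pair above included, had at least 1 CPM in each of the 9 WT, Suz12 KO and Jarid2 + Aebp2 KO libraries (22 to 1254 counts) and at most 2 counts in each of the 15 others (14 counts in all, over the 5 IDs). No position or name is paired with these IDs here, and the labels do not say if the 5 genotypes without Pcl1-3 came from 1 parental line; loss of a transcript, loss of the gene and a difference between lines cannot be told apart from these counts. It was also not checked here if any of these IDs is 1 of the targeted genes, or if they lie together on 1 chromosome, and the falls of at least 699-fold and 455-fold hold under that limit.

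The 2 highest log2 fold changes among called IDs of at least 1 CPM in a group and no overlap between libraries belonged to weakly expressed IDs. ENSMUSG00000106915.1 had 2, 1 and 2 counts in WT and 23, 11 and 60 in Pcl1-3 KO, or 0.147 ± 0.0478 against 1.65 ± 0.741 CPM (SD, n = 3). Its log2 fold change was 3.43 (SE 0.86; edgeR adjusted p = 0.0161), and the ratio of summed counts was 12 with a 95% exact counting interval of 4.96 to 37.8. The call ended without any 1 of the WT replicates 1, 2 and 3 (edgeR adjusted p = 0.0634, 0.0615 and 0.0649) and without Pcl1-3 KO replicate 3 (0.0795). ENSMUSG00000028337.14 had 1, 3 and 2 counts in WT and 27, 21 and 53 in Pcl1-3 KO, or 0.180 ± 0.104 against 1.93 ± 0.437 CPM, with a log2 fold change of 3.37 (SE 0.62; edgeR adjusted p = 0.00172). It passed under all 12 alternatives tried (adjusted p from 1.30e-07 to 0.0182).

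The risen pair differed across the other genotypes. ENSMUSG00000106915.1 was at 1.60 ± 0.859 CPM in Jarid2 + Aebp2 KO and 1.58 ± 0.966 in Pcl1-3 + Jarid2 + Aebp2 KO, levels that overlap between libraries, and at 0.375 ± 0.211 CPM in Suz12 KO. ENSMUSG00000028337.14 was at 3.45 ± 0.982 CPM in Suz12 KO and 1.88 ± 0.414 CPM in Pcl1-3 + Epop KO, and at 0.570 ± 0.356 CPM in Jarid2 + Aebp2 KO. The lowest genotype was WT for both.

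**Figure D3:**
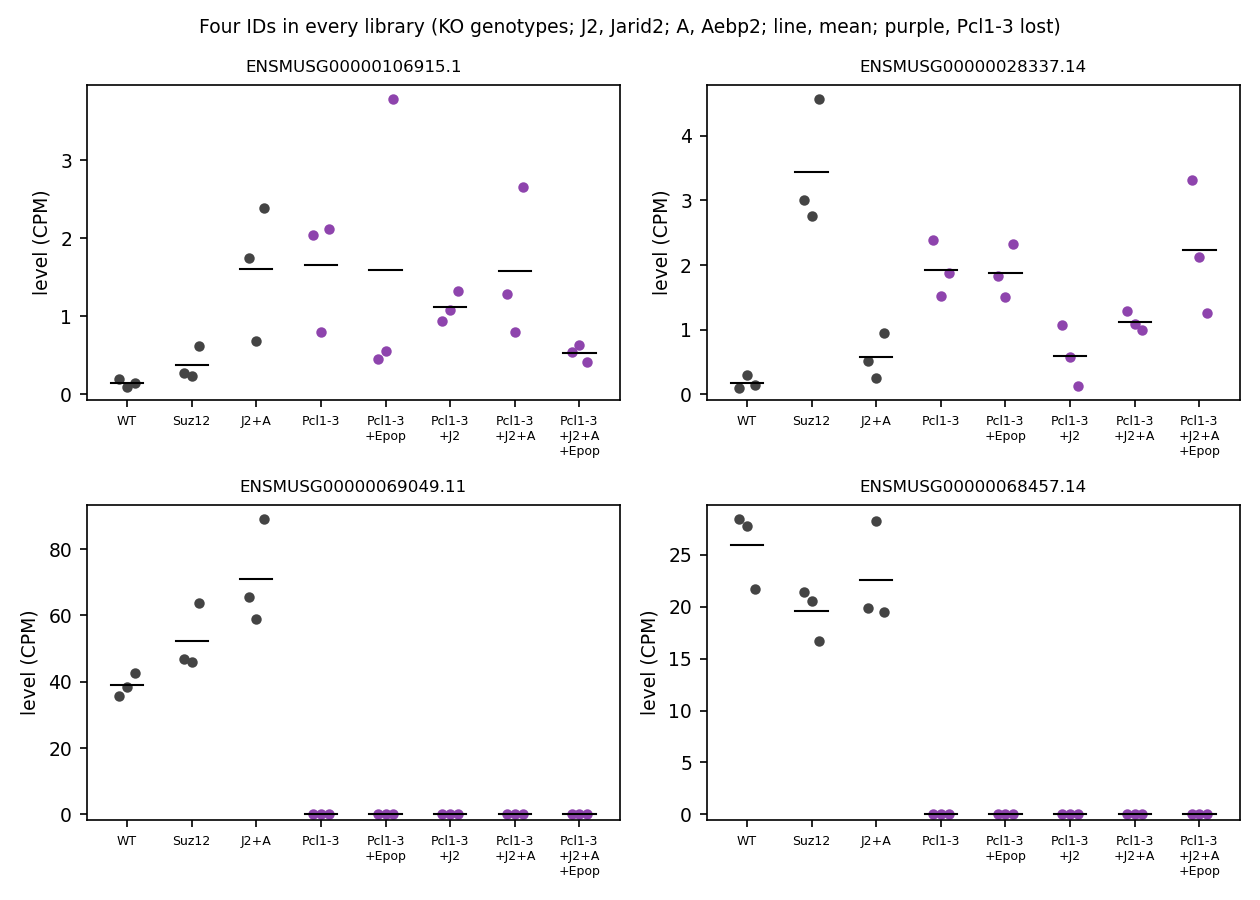
Level in CPM of the 2 IDs with the highest (top) and the 2 with the lowest (bottom) log2 fold change among called IDs of at least 1 CPM in a group and with no overlap between libraries, in each of 24 libraries (points) with the group mean (line); purple marks genotypes without Pcl1-3. The lower panels show levels of 16.7 to 89.0 CPM in the 9 libraries that keep Pcl1-3 and at most 0.133 CPM in the 15 that do not.

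A second pair of genotypes differs by the same loss without sharing a library: Pcl1-3 + Jarid2 + Aebp2 KO against Jarid2 + Aebp2 KO. The labels do not give the order of the knockouts, and both genotypes of this pair lack the PRC2.2 partners. There 1007 IDs were higher and 1000 lower of 14650 (6.87% and 6.83%; edgeR quasi-likelihood, n = 3). Same-numbered libraries deviated together in this pair, and a fit blocked on replicate number gave 1730 higher and 1759 lower IDs (3489 in all, against 2007). Without Jarid2 + Aebp2 KO replicate 3 the total was 1247.

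The IDs risen and fallen in Pcl1-3 KO partly moved the same way in the other background. Of the 637 risen IDs 148 also rose there (23.2%, against 6.87% of all IDs) and 22 fell (3.45%). Of the 637 fallen IDs 208 also fell (32.7%, against 6.83%) and 39 rose (6.12%). Taken from the other list, 14.7% of the 1007 IDs higher there had risen in Pcl1-3 KO and 20.8% of the 1000 lower ones had fallen. With the block, 358 IDs rose and 410 fell in both. The labels do not say if the genotypes without Pcl1-3 share a parental line. Whether part of the overlap comes from a difference between lines was not tested. The shared risen IDs fell in number to 74 or 98 when WT replicate 1 or 2 was left out, and to 96 or 73 for Pcl1-3 KO replicate 1 or 3; the shared fallen IDs numbered 128 without WT replicate 1 and 121 without Pcl1-3 KO replicate 3.

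In each direction of the comparison, IDs chosen in 1 background had smaller median changes in the other. Over the 637 risen IDs the median log2 fold change was 0.79 in Pcl1-3 KO against WT and 0.17 with Jarid2 and Aebp2 lost, and over the fallen IDs −1.23 and −0.44; over all tested IDs it was 0.0034 and −0.0097. Conversely, the 1007 IDs higher and the 1000 lower in the other background had medians of 0.72 and −0.92 there and of 0.11 and −0.17 in Pcl1-3 KO against WT. Values of a set in the comparison that chose it are drawn outward by that choice, and these medians do not show smaller changes in either background. Of those past 2-fold 25.2% of 238 rose and 35.9% of 382 fell again, with medians of 0.48 and −0.96. Across the 1274 called IDs, which are not independent replicates, Pearson's r between the log2 fold changes was 0.64, and across all 14650 it was 0.30.

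**Figure D4:**
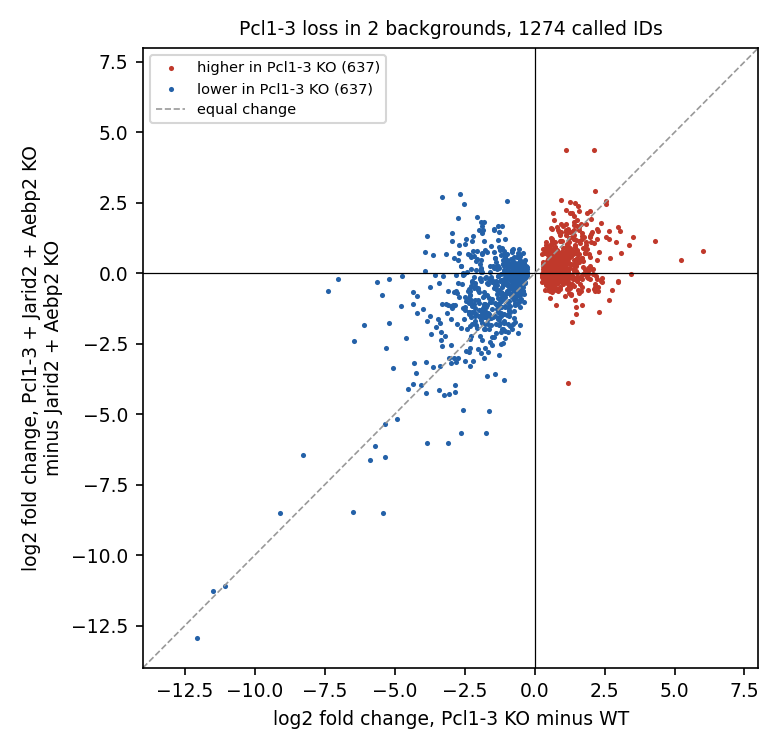
Each of the 1274 IDs called in Pcl1-3 KO is placed by its log2 fold change against WT and by its log2 fold change when Pcl1-3 is lost together with Jarid2 and Aebp2; the dashed line marks equal change. The risen IDs have a median of 0.79 on the horizontal and 0.17 on the vertical axis, and the fallen IDs −1.23 and −0.44.

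The difference between the effects was tested by an interaction term. The effect of losing Pcl1-3 differed for 1078 of 14650 IDs (7.36%), more positive for 543 (3.71%) and more negative for 535 (3.65%) when Jarid2 and Aebp2 were lost too (edgeR quasi-likelihood). Among the 637 IDs risen in Pcl1-3 KO 142 had a lower effect there, 16 a higher one and 479 did not pass. Among the fallen, 159 had a higher effect, 17 a lower one and 461 did not pass. The sets were chosen on values that enter this term, which favours these directions. For the 2 IDs with the lowest fold changes, with 0 counts on both sides, the term could not be estimated. A fit blocked on replicate number gave 2745 IDs (1330 and 1415), and one with no filter on low counts 1696. Leaving out WT replicate 1 or 2 gave 456 or 703 IDs, and Pcl1-3 KO replicate 1 or 3 gave 521 or 435. The total was 564 and 488 without Jarid2 + Aebp2 KO replicates 1 and 3, and 630 and 631 without Pcl1-3 + Jarid2 + Aebp2 KO replicates 1 and 2; it was highest without Pcl1-3 KO replicate 2, at 1600.

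The called sets were then followed through all 8 genotypes. Each ID was centred on its mean log2 CPM over the 24 libraries, and the median over each set was taken in every library. For the fallen set it ran from 0.56 to 0.84 in WT and from −0.45 to −0.27 in Pcl1-3 KO, which is how the set was chosen. In the libraries that did not choose it, Suz12 KO had medians of 0.57 to 0.59, and Jarid2 + Aebp2 KO had medians of 0.02 to 0.24, all above 0. In the other genotypes without Pcl1-3 they were −0.54 to −0.13 (with Epop lost), −0.17 to −0.13 (Jarid2), −0.35 to −0.19 (Jarid2 and Aebp2) and −0.19 to −0.11 (Jarid2, Aebp2 and Epop), all below 0.

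The risen set overlapped between some genotypes with and without Pcl1-3. Its medians were −0.59 to −0.44 in WT and 0.08 to 0.35 in Pcl1-3 KO, with replicate 2 the lowest of the latter. Suz12 KO libraries stood at −0.31 to −0.09 and Jarid2 + Aebp2 KO libraries at −0.27 to 0.05. With Epop also lost the medians were −0.02 to 0.46, which overlap those of Jarid2 + Aebp2 KO. With Jarid2 also lost they were 0.12 to 0.23, with Jarid2 and Aebp2 0.07 to 0.28, and with Jarid2, Aebp2 and Epop 0.06 to 0.15. The median over all tested IDs stayed between −0.0062 and 0.018 in every library.

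**Figure D5:**
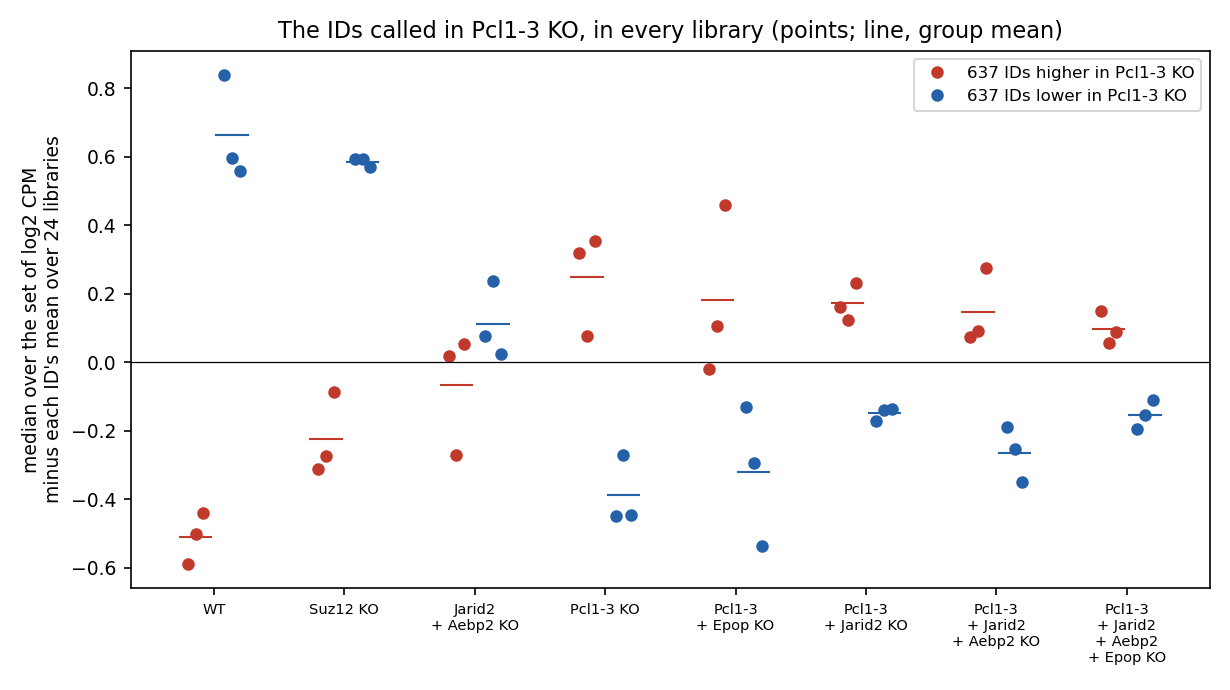
For each of 24 libraries (points, with the group mean as a line) the median over the 637 risen (red) and 637 fallen (blue) IDs of log2 CPM minus the mean of each ID over 24 libraries. The blue points are above 0 in the 9 libraries that keep Pcl1-3 and below 0 in the 15 that lack it. The place of 0 depends on the mix of libraries, which include the 6 that chose the sets. Blue points of Jarid2 + Aebp2 KO lie at 0.02 to 0.24, and those of Pcl1-3 + Jarid2 + Aebp2 + Epop KO at −0.19 to −0.11.

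Direct comparisons set Pcl1-3 KO beside the added loss of Epop and beside the loss of the core subunit Suz12. Adding the loss of Epop, which joins PRC2.1 together with a Polycomb-like protein, left 1 of 14650 IDs past the test (0.00683%; edgeR quasi-likelihood), and 210 IDs had an unadjusted p under 0.05. DESeq2 called 3 IDs, and edgeR blocked on replicate number, since same-numbered libraries deviated together here, called 2. ENSMUSG00000042129.8, the only ID called, had 7, 10 and 35 counts in Pcl1-3 KO and 75, 72 and 130 in Pcl1-3 + Epop KO, or 0.860 ± 0.330 against 7.52 ± 3.17 CPM (log2 fold change 3.03, SE 0.46; edgeR adjusted p = 0.0212). Without any 1 of the Pcl1-3 KO replicates 1, 2 and 3, or without Pcl1-3 + Epop KO replicate 3, 0 IDs passed. In WT the same ID stood at 2.15 ± 1.26 CPM.

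Suz12 KO differed far more from Pcl1-3 KO. Of 14650 IDs 3308 were higher and 3070 lower in Suz12 KO than in Pcl1-3 KO (43.5% in all; edgeR quasi-likelihood), with 2092 and 858 past 2-fold and median log2 differences of 1.43 and −0.71. Blocked on replicate number, the fit gave 4045 higher and 3811 lower IDs. The IDs with the lowest fold changes in Pcl1-3 KO were among those higher in Suz12 KO (edgeR adjusted p = 8.83e-10 for ENSMUSG00000069049.11 and 1.34e-08 for ENSMUSG00000068457.14). ENSMUSG00000106915.1 was lower in Suz12 KO by a log2 difference of −2.13 (SE 0.69; edgeR adjusted p = 0.0159), and ENSMUSG00000028337.14 did not pass (0.85, SE 0.41; edgeR adjusted p = 0.104).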

How the data were processed

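For each of 24 RNA libraries a deposited table gives raw counts by Ensembl ID; STAR, HTSeq and mm10 are named in the submitters' processing notes, without versions, and no label states strand, so overlapping, antisense and duplicated genes are uncertain. The deposited SUZ12, JARID2 and PCL2 peak lists hold other values only, positions in base pairs. Of 55450 IDs 24056 had no count, and 14650 passed filterByExpr. edgeR 4.0.16 (R 4.3.3) with TMM scaling fitted all 24 libraries, 1 mean per genotype, with robust quasi-likelihood tests, checked on simulated data. DESeq2 1.42.0 was an alternative. Log2 CPM used a prior count of 2.

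The comparison, members and lists were chosen with earlier results of these data known. The planned naming rule reduces, without gene names, to the 2 highest and 2 lowest log2 fold changes among called IDs with at least 1 CPM in a group and no overlap between libraries. The fixed gene lists were not used. Comparisons with Epop loss and with Suz12 KO, and the set of IDs near 0 counts, were added after the data were seen. Deviations from group means correlated at 0.28, 0.083 and 0.15 for same-numbered Pcl1-3 KO and WT libraries. These were not taken as paired, since 0.083 is under 0.1, though each Pcl1-3 KO library correlated best with the WT library of its number. For Pcl1-3 + Jarid2 + Aebp2 KO with Jarid2 + Aebp2 KO the values were 0.36, 0.30 and 0.50. For Pcl1-3 + Epop KO with Pcl1-3 KO they were 0.20, 0.46 and 0.71, and for Suz12 KO with Pcl1-3 KO 0.11, 0.26 and 0.49. All of these were over 0.1 and taken as paired from these correlations alone. Over all 84 same-numbered pairs of libraries of different genotypes the correlation ran from 0.031 to 0.71, with a median of 0.26. A pairing by number in the whole series thus remains possible, and the reported fit has no block.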

Additional observations from a re-analysis of the deposited data

Results flagged for a closer look

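The effect of losing Pcl1-3 differed by the interaction term of the edgeR fit between cells that keep Jarid2 and Aebp2 and cells that lack them for 1078 of 14650 IDs, 543 upward and 535 downward. The strain label differs between all 4 genotypes of this contrast, its last digit going up by 1 with each genotype of the series, and the labels do not say if it names different strains; as labelled it cannot be told apart from genotype.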

How the results depend on the processing

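With no filter on low counts 2001 IDs passed in Pcl1-3 KO against WT (1088 higher), 1696 in the difference between the effects and 20 in Pcl1-3 + Epop KO against Pcl1-3 KO. With the replicate number as a block these were 2895 (1518 higher and 1377 lower), 2745 and 2, with 3489 for Pcl1-3 loss with Jarid2 and Aebp2 lost and 358 risen and 410 fallen IDs shared between the backgrounds; each Pcl1-3 KO library correlated best with the WT library of its own number, a hint from the data and not from the design, and the block kept all 1274 reported calls. Past 2-fold it gave 415 risen IDs. It ended no call of the 4 IDs named for Pcl1-3 KO against WT and turned no direction. With only the genotypes compared, 1280 IDs passed for Pcl1-3 loss with Jarid2 and Aebp2 lost, and 0 for added Epop loss, where DESeq2 called 3. Leaving out 1 library at a time gave 463 to 1514 IDs in Pcl1-3 KO against WT (183 to 821 higher, 267 to 693 lower), 1247 to 1869 with Jarid2 and Aebp2 lost, 435 to 1600 for the difference, 73 to 145 shared risen and 121 to 187 shared fallen IDs, 0 to 1 for added Epop loss and 5538 to 6217 for Suz12 KO against Pcl1-3 KO. Fewer libraries enter these fits; other causes were not tested. None of the 4 IDs named for Pcl1-3 KO against WT changed direction in the fits that tested it; ENSMUSG00000106915.1 was not among the IDs tested with only the genotypes compared, and ENSMUSG00000042129.8 was not followed. With median-ratio size factors 593 IDs rose and 663 fell. At 0.25 and 1 CPM 7 IDs gained and 50 lost expression. Comparisons of called genes near peaks were not run, since IDs have no positions here. Depth limits IDs near 0 counts.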
